A study of Saccharomyces cerevisiae with 30 samples.

Results

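CIN5, YAP6, YAP1, YAP3, YAP5 and YAP7 encode transcription factors of the yeast Yap family. These 6 genes were taken by name from the 6932 features of the deposited expression table. For each gene, insertions were counted in the body, in the 1200 bp before the start codon (called upstream here) and in the 600 bp after the stop codon in 28 calling card libraries. The transcript level was read in 2 polyA RNA-seq libraries. In the calling card method a transcription factor is fused to Sir4, which directs the retrotransposon Ty5 to the DNA that the factor occupies, so that insertions mark its binding. The design text gives the yeast as Σ1278b, a Saccharomyces cerevisiae strain that grows in filaments when nitrogen is scarce.

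Each calling card library came from 1 factor, namely Flo8, Mss11, Mfg1, Sok2, Ste12, Tec1, Mit1, Nrg1, Sfl1, Phd1, Mga1, Rim101, Rlm1, Rtg1, Skn7, Smp1, Fkh1, Dig1, Gln3, Hms1, Msn1, Hot1, Hms2, Yap6, Msn2, Msn4, Gcn4 or Rgm1. Yap6 was thus the only factor of the family with a library of its own. The labels give synthetic medium of low ammonium for growth, 2% galactose for induction of the transposon, and His+ FOAr colonies as the source of the DNA, which was cut in 3 separate digests. The colonies of a factor were pooled, and no library had a replicate or a control without a fusion. The RNA libraries are labelled Rich Media and Nitrogen Starved Media, 1 library each, and carry the same growth and induction text as the calling card libraries. The 28 libraries held 401017 insertions in all, from 2836 for Rtg1 to 41619 for Phd1, with a median of 12128.5, and repeated lines at 1 position made up 0.378% to 27.6% of a library and over 15% in 10 of them.

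Yap factors are basic leucine zipper proteins, related to mammalian AP-1, that bind short Yap response elements and switch on stress genes. Yap1 is the main factor of the oxidative stress response and accumulates in the nucleus when its cysteines are oxidised. Cin5, also called Yap4, and Yap6 are linked to salt and osmotic stress, Yap5 to the response to high iron, and Yap7 to repression of YHB1, the gene of the flavohaemoglobin that detoxifies nitric oxide. Flo8, Mss11 and Mfg1, whose libraries recur below, are partners in the control of filamentous growth and of the flocculin gene FLO11.

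The 6 upstream regions held very different numbers of insertions. Over all 28 libraries the 1200 bp upstream held 4613 insertions at CIN5, 1466 at YAP6, 180 at YAP5, 106 at YAP1, 43 at YAP7 and 15 at YAP3. These windows differ in how much of them the bodies of neighbouring genes take. The median over the 6443 genes with a strand was 30, and CIN5 ranked 4 and YAP6 32 from the top. CIN5 and YAP6 had insertions in all 28 libraries, whereas YAP3 had none in 18 libraries and YAP7 none in 10. With 3 counts taken as the limit that a count of 0 allows, the rate there could be up to 0.0721 insertions per 1000 in the largest library, that of Phd1, and up to 1.06 per 1000 in the smallest, that of Rtg1. Each library was compared with the sum of the 27 others by a one-sided Fisher's exact test and called at a p of 0.05 or less after Benjamini-Hochberg adjustment over all genes and libraries. Such a test compares libraries and carries counting error only. It called 6 of the 168 pairs of a gene and a library, that is 3.57%, against 0.996% of all pairs. The calls were 4 at CIN5, 1 at YAP6 and 1 at YAP1, with none at YAP3, YAP5 and YAP7. At an unadjusted p of 0.05 or less, Fisher's exact test passed 2 libraries at YAP3, 4 at YAP5 and 2 at YAP7 of 28 each, against 6.69% of all pairs.

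**Figure D1:**
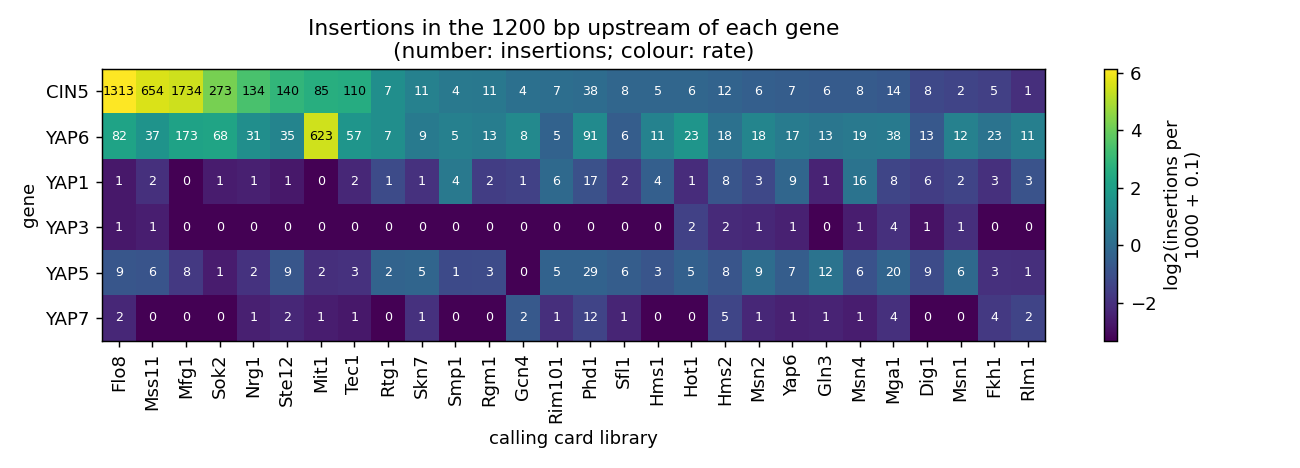
Insertions in the 1200 bp upstream of each of the 6 genes (rows) in the 28 libraries (columns, in the order of their rate at CIN5); the number in a cell is the insertion count and the colour the log2 rate per 1000 insertions of the library. CIN5 holds 1734 insertions of Mfg1 and 1313 of Flo8, YAP6 holds 623 of Mit1, and no cell of YAP1, YAP3, YAP5 or YAP7 goes above 29.

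CIN5 (YOR028C, chromosome 15, 382171 to 383058, minus strand, in the coordinates of the deposited table, whose genome build is not given in the sources used here) was covered above all by the Flo8 partners. Flo8 left 1313 insertions upstream, a rate of 71.0 per 1000 insertions of its library (exact Poisson 95% interval 67.2 to 75). Mss11 left 654, or 49.4 per 1000 (45.7 to 53.3), and Mfg1 1734, or 42.6 per 1000 (40.6 to 44.6). These 3 libraries gave 3701 of the 4613 insertions, or 80.2%. Between these libraries the rate of Flo8 was 1.44 times that of Mss11 (adjusted p = 2.8e-15) and 1.67 times that of Mfg1 (adjusted p = 5.8e-45), and that of Mss11 was 1.16 times that of Mfg1 (adjusted p = 0.001), by Fisher's exact test, two-sided, over these 3 pairs. Against the 27 others, which include the other Flo8 partners, the odds ratio was 8.79 for Flo8, 5.04 for Mss11 and 5.52 for Mfg1. With Flo8, Mss11 and Mfg1 left out of the reference it was 27.5, 18.7 and 16.0, the order of the rates.

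A second group of 5 libraries stood at lower rates upstream of CIN5. Sok2, a repressor and activator of filamentation genes, left 273 insertions (18.3 per 1000, 16.2 to 20.6) and was called with an odds ratio of 1.64 and an adjusted p of 6.6e-11 by Fisher's exact test. Nrg1, a glucose repressor, left 134 (10.8 per 1000, 9.01 to 12.7), and Ste12, the factor of the mating and filamentation pathway, 140 (7.40 per 1000, 6.22 to 8.73). Mit1 left 85 (5.96 per 1000, 4.76 to 7.37) and Tec1, the partner of Ste12, 110 (5.79 per 1000, 4.76 to 6.98). The intervals of Nrg1 and Ste12 did not overlap, while Ste12, Mit1 and Tec1 could not be told apart by theirs. The other 20 libraries held 1 to 38 insertions each, and Rtg1 had the highest rate among them, 2.47 per 1000 (0.992 to 5.09), on 7 insertions. The 4 libraries of Ste12, Nrg1, Tec1 and Mit1 were not called against the 27 others, and with Flo8, Mss11 and Mfg1 left out of the reference they were, with odds ratios of 2.98, 4.41, 2.24 and 2.27.

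**Figure D2:**
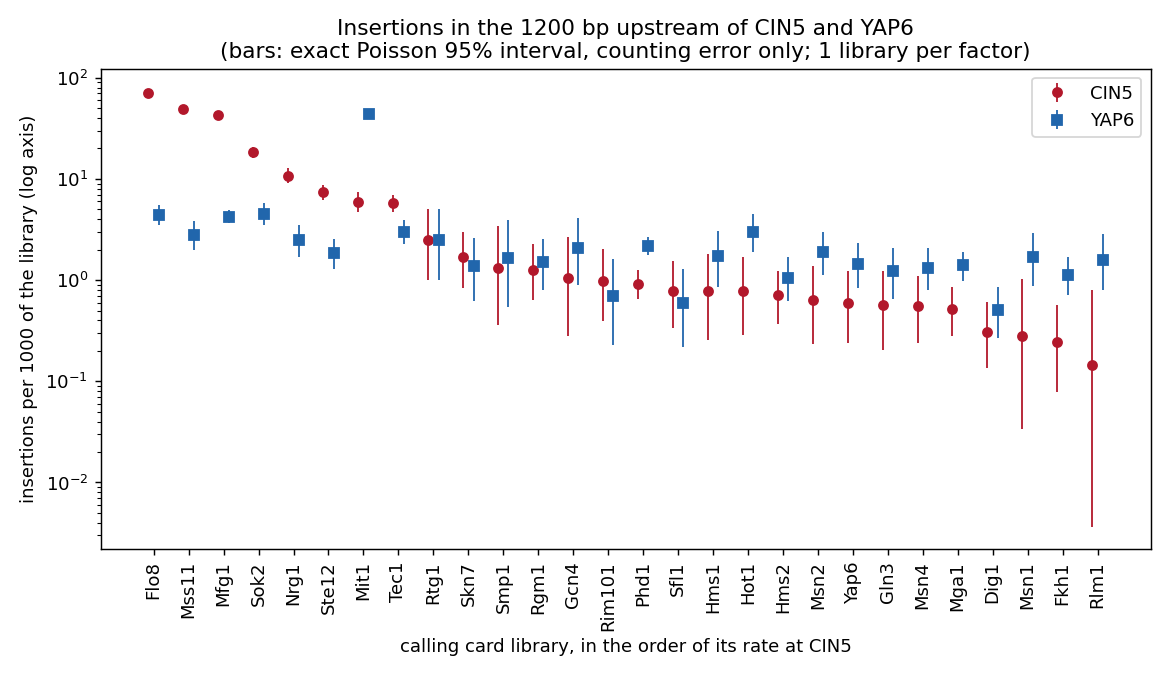
Insertions per 1000 of each library (log axis) in the 1200 bp upstream of CIN5 (circles) and YAP6 (squares) in the 28 libraries, with exact Poisson 95% intervals. At CIN5 the rates step down from 71.0 for Flo8 to 5.79 for Tec1 before the other 20 libraries, and at YAP6 the rate of 43.7 for Mit1 stands alone.

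In the authors' deposited table, read at a p of 0.001 or less, CIN5 was called by 8 libraries, namely the 3 Flo8 partners, whose values are listed at 0, and Sok2, Ste12, Tec1, Mit1 and Nrg1, whose values lay between 4.44e-16 and 1.55e-15. This threshold was passed by 0.879% of all pairs in the authors' deposited table, and 44 genes (0.682%) were called by at least 8 libraries. Next in that deposited table came Phd1 at 0.00561 and Skn7 at 0.00853.

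Reads separated the Flo8 partners from the second group at CIN5, while shared positions were common in both. Each listed insertion carries a whole number taken as its read count. At positions upstream of CIN5 the median was 63.5 reads for Flo8, 29.5 for Mss11 and 98 for Mfg1, against 8, 10 and 17 reads over each whole library. It was 1 read for Ste12, Tec1 and Nrg1, 1.5 for Mit1 and 2 for Sok2, against whole-library medians of 7, 7, 6, 8 and 5. Summed reads upstream of CIN5 came to 111 per 1000 reads of the library for Flo8 and to 0.115 for Ste12, 0.353 for Tec1, 1.26 for Mit1, 3.82 for Nrg1 and 6.58 for Sok2. Of the 122 positions of Ste12, 121 were also positions of Flo8, Mss11 or Mfg1, as were 98 of 99 for Tec1, all 119 for Nrg1, all 80 for Mit1 and 213 of 216 for Sok2. The Flo8 partners shared most positions too, each with at least 1 of its partners. These were 588 of 656 for Flo8, 395 of 412 for Mss11 and 610 of 758 for Mfg1. Away from CIN5, 34.3% of Ste12's positions were also positions of Flo8, Mss11 or Mfg1, and 49.2% of Sok2's. The 3 libraries covered 855 of the 1200 bp (71.2%). Once positions with 10 times or more reads in some other library were dropped, 2 insertions of Ste12, 4 of Tec1, 8 of Nrg1, 11 of Mit1 and 43 of Sok2 remained, and Sok2 was no longer called (odds ratio 0.42), whereas 1062 of Flo8, 389 of Mss11 and 1599 of Mfg1 remained and stayed called. This filter compared reads unscaled for library size. Flo8 and Mfg1 had medians of 63.5 and 98 reads here. At shared positions, insertions of the second group with reads at their library's median could thus be dropped too. Whether reads of one library reached the list of another was not tested. Phd1 differed from the second group in reads, with 38 insertions at a median of 24 reads against 19 over its library. Of its 38 positions, 36 were also positions of Flo8, Mss11 or Mfg1, and 19 had 10 times or more reads in some other library.

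The insertions did not stop at the upstream region of CIN5. In Flo8, Mss11 and Mfg1 they lay on both sides of the gene and were sparse in its body next to these flanks. Over all libraries the density was 384 insertions per 100 bp upstream, 16.4 in the body and 397 in the 600 bp after the stop codon. Among gene bodies that of CIN5 was still high, with 146 insertions against a median of 9 and a rank of 96 of 6443. The upstream stretch holds the small open reading frame YOR029W (383236 to 383571) on the other strand, and the nearest gene beyond it, DFG16, starts 1329 bp past the 1200 bp mark. That farther stretch held 532 insertions. After the stop codon a gap of 707 bp separates CIN5 from STI1, the gene of an Hsp90 co-chaperone, which is transcribed towards it. This gap held 2476 insertions, and the body of STI1 held 26.

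**Figure D3:**
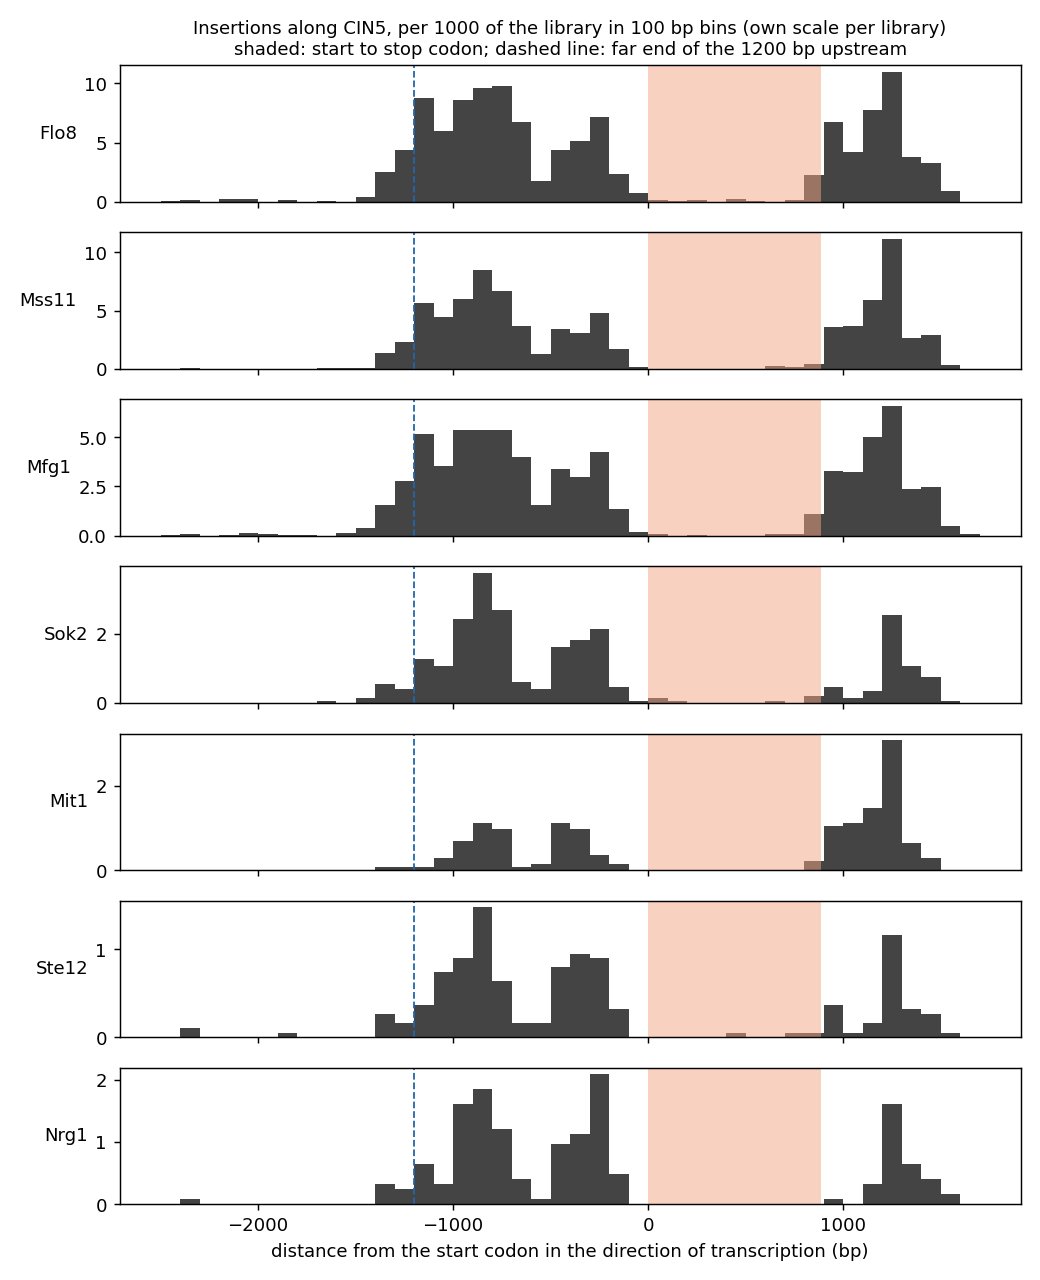
Insertions along CIN5 in 100 bp bins, per 1000 insertions of the library and on an own scale for each of 7 libraries, against the distance from the start codon in the direction of transcription; the shaded stretch is the body. Insertions fill the upstream side with a dip at 501 to 600 bp, are few over the body and return after the stop codon. In separate bins counted from the stop codon, not those drawn, the stretch at 301 to 400 bp is the densest of the 600 bp.

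Upstream of CIN5 the bin at 501 to 600 bp was thin in each of the Flo8 partners. It held 33 insertions of Flo8, 17 of Mss11 and 63 of Mfg1, against 180, 89 and 219 in the bin at 701 to 800 bp. A nearer group lay at 201 to 500 bp, where the bin at 201 to 300 bp held 133 of Flo8, 64 of Mss11 and 173 of Mfg1. In the body, 47 insertions of Flo8 (odds ratio 9.85, adjusted p = 1.9e-23) and 46 of Mfg1 (odds ratio 4.07, adjusted p = 2e-09) were called by Fisher's exact test, against 0.285% of all pairs called in gene bodies. Most of these lay at the stop codon end, since 33 of the 47 and 36 of the 46 fell in the last 88 bp and 14 and 10 in the first 800 bp.

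After the stop codon of CIN5, Flo8 left 676 insertions (36.6 per 1000, 33.9 to 39.4), Mss11 394 (29.8 per 1000, 26.9 to 32.8) and Mfg1 927 (22.8 per 1000, 21.3 to 24.3). These 3 were called by Fisher's exact test, with odds ratios of 8.47, 5.95 and 5.74, and gave 83.8% of the 2383 insertions there. They were the calls in this stretch for the 6 genes, and 0.427% of all pairs of a gene and a library were called after stop codons. Among the 6443 genes this stretch ranked 2 in each of the 3 libraries, behind only YOR029W, whose own 600 bp after the stop codon lie in the upstream region of CIN5. A median gene had 0 insertions after its stop codon in each of the 3. Of the genes called upstream, 5 of 53 for Flo8, 2 of 50 for Mss11 and 14 of 135 for Mfg1 were also called after the stop codon. The bin at 301 to 400 bp was the densest in all 8 libraries of both groups, with 208 insertions of Flo8, 153 of Mss11 and 275 of Mfg1.

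Among the 8 libraries of both groups, only Mit1 had more insertions in the 600 bp after the stop codon of CIN5 than in the 1200 bp upstream, 110 (7.71 per 1000, 6.34 to 9.30) against 85, although its 110 were not called (odds ratio 1.32, adjusted p = 0.34 by Fisher's exact test). Per 100 bp, Mit1 had 18.3 insertions after the stop codon and 7.08 upstream, Flo8 113 and 109, Mss11 65.7 and 54.5 and Mfg1 154.5 and 144.5, while Sok2, Ste12, Tec1 and Nrg1 were denser upstream. The ratio of insertions after the stop codon to insertions upstream, over these unequal lengths, was 1.29 for Mit1 and 0.515 for Flo8 (adjusted p = 1.2e-08 by Fisher's exact test). It was 0.289 for Sok2 (adjusted p = 4.9e-05), 0.261 for Nrg1 (adjusted p = 0.00076) and 0.314 for Ste12 (adjusted p = 0.0093) by the same exact test, all below Flo8. Mss11 at 0.602 (adjusted p = 0.070), Tec1 at 0.364 (adjusted p = 0.085) and Mfg1 at 0.535 (adjusted p = 0.55) did not pass that exact test. These are two-sided Fisher's exact tests of 7 libraries against Flo8, a comparison chosen after the values were seen. Once positions 10 times richer elsewhere were dropped, 27 insertions of Mit1 remained after the stop codon. Each position counted once, Mit1 was called there (odds ratio 2.43, adjusted p = 9.5e-10 by Fisher's exact test).

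YAP6 (YDR259C, chromosome 4, 943536 to 944687, minus strand) carried insertions of another factor above all. Mit1, a regulator of filamentous growth related to the Candida regulator Wor1, left 623 insertions upstream, or 43.7 per 1000 (40.3 to 47.3), against 2.18 per 1000 in the 27 others pooled (odds ratio 20.9). It was the only library called there. Sok2 followed with 68 insertions (4.55 per 1000, 3.53 to 5.76), Flo8 with 82 (4.44 per 1000, 3.53 to 5.51) and Mfg1 with 173 (4.25 per 1000, 3.64 to 4.93), whose intervals overlap one another. Tec1 held 57 (3 per 1000), Hot1, an osmotic stress factor, 23 (2.97 per 1000), Mss11 37 (2.79 per 1000) and Phd1 91 (2.19 per 1000). The other 20 libraries held 5 to 38 insertions each. The Yap6 library left 17 (1.44 per 1000, 0.840 to 2.31), near the median of 1.70 per 1000 over the 28 libraries. With Mit1 out of the reference, an alternative added after the data were seen, Flo8 (odds ratio 2.15), Mfg1 (2.20) and Sok2 (2.19) were called as well.

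In the authors' deposited table YAP6 was called by 7 libraries, with Mit1 listed at 0, Sok2 at 2.78e-15, Flo8 at 4.89e-15, Mfg1 at 1.08e-14, Tec1 at 5.58e-08, Phd1 at 4.44e-06 and Mss11 at 6.27e-05. Just above the threshold in that deposited table were Hot1 at 0.00103 and Nrg1 at 0.00154. Of the libraries called in the authors' deposited table, 6 were shared, which is 75% of those of CIN5 and 85.7% of those of YAP6. How often other genes share their libraries to this extent was not computed. Among the 6, Sok2, Tec1 and Mit1 had medians of 2, 1 and 1.5 reads per position at CIN5, and Tec1 had 1 read at YAP6. A total of 53 genes (0.822%) were called by at least 7 libraries in the authors' deposited table. Across the 28 libraries the upstream rates of CIN5 and YAP6 had a Pearson r of 0.57 on the scale log2(insertions per 10000 + 1), given as a description, since the libraries share positions and differ in size.

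**Figure D4:**
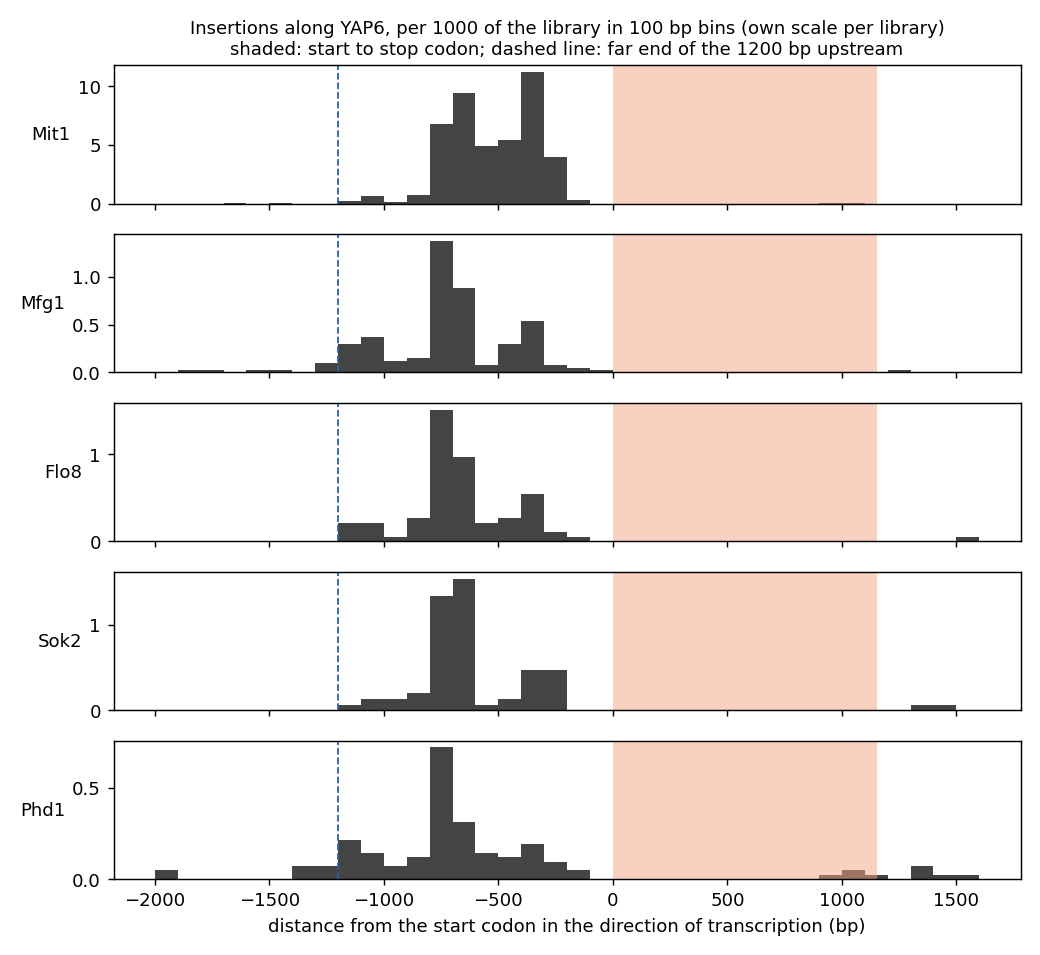
Insertions along YAP6 in 100 bp bins, per 1000 insertions of the library and on an own scale for each of 5 libraries, against the distance from the start codon in the direction of transcription; the shaded stretch is the body. Mit1 has its densest bin at 301 to 400 bp and fills the bins up to 800 bp, while Mfg1, Flo8, Sok2 and Phd1 are densest between 601 and 800 bp.

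The layout upstream of YAP6 differed from that at CIN5. The gene SWM1, of a subunit of the anaphase-promoting complex, lies 933 bp from the start codon on the same strand, and its body takes 267 bp of the upstream window. The insertions of Mit1 had a median distance of 522 bp, with 160 at 301 to 400 bp and 134 at 601 to 700 bp. Those of Mfg1 had a median of 723 bp, of Flo8 711 bp, of Sok2 673.5 bp and of Phd1 720 bp. Between both stretches, at 501 to 600 bp, Mit1 still had 70 insertions, against 3 of Mfg1, 4 of Flo8 and 1 of Sok2. The body of YAP6 held 18 insertions in all, and the 600 bp after its stop codon, which reach the upstream region and body of the chaperone gene HSP78, held 45, of which Mit1 had none. At YAP6 the reads per position were near or above those of the library for Mit1 (median 88 against 8), Mfg1 (25.5 against 17), Flo8 (10 against 8), Sok2 (12 against 5) and Phd1 (36 against 19). They were at 1 read for Ste12, Tec1 and Nrg1, and 28 of 33 positions of Ste12 and 34 of 47 of Tec1 were also positions of Mit1. Libraries with more reads shared positions with Mit1 as well, namely 49 of 68 for Flo8, 44 of 61 for Sok2, 82 of 130 for Mfg1 and 57 of 86 for Phd1.

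YAP1 (YML007W, chromosome 13, 253051 to 255003, plus strand) shares its upstream window with ERG6, a sterol methyltransferase gene transcribed away from it, whose body takes 343 bp of it, and with the small gene YML007C-A. Of its 106 upstream insertions, Phd1 gave 17 and Msn4, a general stress factor, 16. Msn4 was called (1.11 per 1000, 0.637 to 1.81, odds ratio 4.79, adjusted p = 0.00028 by Fisher's exact test), on 15 positions with a median of 24 reads against 20 over its library. The call was lost among insertions of at least 2 reads (odds ratio 3.26, adjusted p = 0.16), and in the authors' deposited table the value of Msn4 at YAP1 was 0.0219. Msn2, the paralog of Msn4, left 3. Flo8, Mss11 and Mfg1, which led at CIN5, left 1, 2 and 0 here. Smp1 had the highest rate, 1.33 per 1000 (0.363 to 3.41), on 4 insertions.

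YAP5 (YIR018W, chromosome 9, 367407 to 368144, plus strand) held 180 upstream insertions, more than 93.0% of genes, with no library called. Its window covers the body of MET28, a bZIP gene of sulphur metabolism on the other strand. The 444 bp between both genes also lie upstream of MET28, where Phd1 was called by Fisher's exact test. Phd1 gave 29, Mga1 20 and Gln3, a GATA factor of nitrogen use, 12 (1.12 per 1000, adjusted p = 0.18 by Fisher's exact test). In a window of 500 bp, most of which is shared with the upstream region of MET28, Phd1 was called at YAP5. YAP7 (YOL028C, chromosome 15, 269326 to 270063, minus strand) held 43, of which Phd1 gave 12 (adjusted p = 0.087 by Fisher's exact test). The body of MDM38 takes 569 bp of its window. YAP3 (YHL009C, chromosome 8, 82771 to 83763, minus strand) held 15, at most 4 in a library, that of Mga1. The body of YHL008C takes 203 bp of its window, which also holds the tRNA gene tV(AAC)H. In the authors' deposited table the lowest value was 0.127 for YAP5 (Gln3), 0.058 for YAP7 (Phd1) and 0.629 for YAP3 (Hot1). The bodies of these 4 genes, YAP1 included, held 2 to 20 insertions and the stretches after their stop codons 1 to 12. Among the 5 genes other than CIN5, no library was called in a body or after a stop codon by Fisher's exact test, and 7 (5%) and 3 (2.14%) of the 140 pairs passed at an unadjusted p of 0.05, against 3.92% and 4.41% of all pairs.

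The family was also read through its own factor. The Yap6 library left 7 insertions upstream of CIN5, 17 at YAP6, 9 at YAP1, 7 at YAP5 and 1 each at YAP3 and YAP7. None was called by either method, with YAP1 the closest and the 1 gene of the 6 at an unadjusted p of 0.05 or less (odds ratio 3.06, adjusted p = 0.20 by Fisher's exact test). The Yap6 library called 0.885% of genes by Fisher's exact test and 0.233% in the authors' deposited table. By Fisher's exact test its lowest adjusted p was at DCI1, a peroxisomal enzyme gene (12 insertions, odds ratio 9.22, adjusted p = 1.5e-05), which shares these insertions with its divergent neighbour LAS17, an actin assembly gene. KES1, a sterol-binding protein gene, followed with 14 insertions, VPS53, a vesicle tethering gene, with 23, and RNR2, a ribonucleotide reductase gene, with 22. RNR2 was not called in the authors' deposited table, where its value was 0.00332.

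A list of 46 other genes of the Yap pathway was set beside these leads, of which 45 had values. The Yap6 library called none of the 45 by either method, with 7 (15.6%) at an unadjusted p of 0.05 or less by Fisher's exact test, against 11.5% of all genes in that library, and 0 in the authors' deposited table, against 2.28%. Any of the 28 libraries called 10 of the 45 in the authors' deposited table and 16 by Fisher's exact test, against 11.3% and 21.1% of all genes. At 8 of these genes, in 9 pairs of a gene and a library, a library was called by both methods, and the libraries differed between genes. The share of all genes with such a call was not computed. Among the 8 were ACA1, a bZIP factor gene, for Sok2, and the drug transporter gene FLR1 for Fkh1. HYR1, the gene of the peroxidase that senses peroxide for Yap1, was called for Sfl1. Nrg1 was called at CCP1, the cytochrome c peroxidase gene, and at ENA1, the sodium pump gene, and Hot1 at the glycerol phosphatase genes GPP1 and GPP2. Fkh1 and Gcn4 were called at the co-repressor gene TUP1.

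Genes with upstream patterns most like those of CIN5 and YAP6 over the 28 libraries were found by Pearson correlation of log2(insertions per 10000 + 1), among genes with at least 100 insertions and windows apart from that of the member. Of 909 genes, the most like CIN5 were TUB4, the gamma-tubulin gene (r = 0.93), YOR032W-A (0.92), HMS1, a filamentation factor gene whose window overlaps that of YOR032W-A (0.92), FRE1, a ferric reductase gene whose window overlaps that of TUB4 (0.92), and GID8, a ubiquitin ligase subunit gene (0.89). At TUB4 Mfg1 led with 45.9 insertions per 1000, against 24.8 for Flo8 and 20.5 for Mss11, an order other than that at CIN5. Of 910 genes, the most like YAP6 were SOR1 (0.79), YPR013C (0.74), YEL008C-A (0.73), YEL007W, which is the gene of Mit1 itself and shares its window with YEL008C-A (0.71), and HXT13 (0.71). SOR1, a sorbitol dehydrogenase gene, and HXT13, a sugar transporter gene, have near-identical copies, so their counts are uncertain. Mit1 gave 42.5% of the upstream insertions at YAP6, 45.3% at SOR1 and 34.3% at YEL007W.

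Transcripts of the 6 genes were detected in both media. The RPKM, a read density corrected for gene length and library size, went from 20.1 in rich to 32.4 in nitrogen-starved medium for CIN5 and from 29.7 to 41.7 for YAP6. YAP1 stood highest, at 101 and 131, and YAP7 at 68.9 and 61.1. YAP3 read 20.9 and 23.5, and YAP5 20.9 and 22.0, so that both lay near CIN5 in rich medium and below it in starved medium. The median feature among the 6122 with at least 5 RPKM in 1 medium read 48.9 and 53.6, so CIN5 and YAP6 lay below the median in both.

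**Figure D5:**
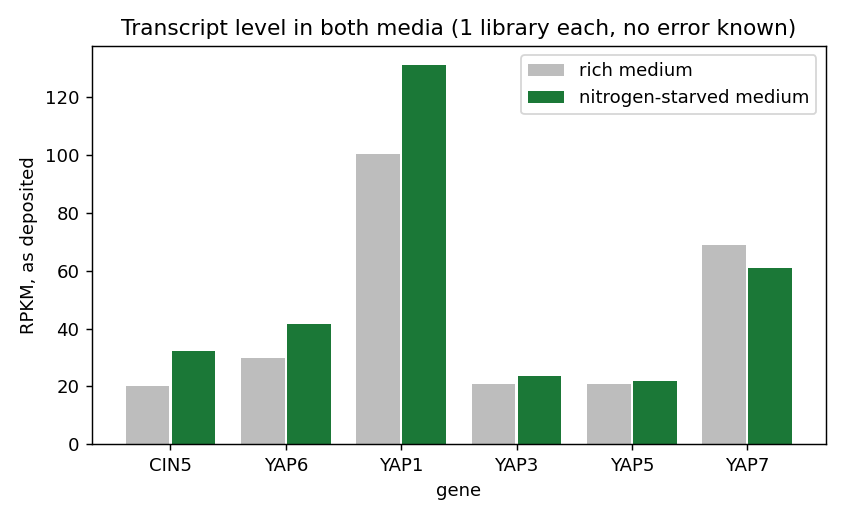
Deposited RPKM of the 6 genes in the 2 RNA libraries, from rich and nitrogen-starved medium. YAP1 is highest at 101 and 131, CIN5 goes from 20.1 to 32.4, and YAP7, at 68.9 and 61.1, is the 1 gene lower in the starved library.

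On the scale log2((starved + 1)/(rich + 1)), the difference was 0.67 for CIN5, 0.48 for YAP6, 0.38 for YAP1, 0.16 for YAP3, 0.07 for YAP5 and -0.17 for YAP7. None of the 6 passed 2-fold in either direction, a threshold that 10.8% of features passed upward and 4.05% downward. The difference of CIN5 was above that of 83.3% of features and that of YAP7 above 34.8%. Of the 6, 5 were higher in the starved library, as were 51.0% of features. The median difference of all 6 was 0.27 against 0.01 over all features. With 1 library per medium there is no spread to set these differences against. The galactose genes differed far more, GAL1 reading 9.31 in rich and 5126 in starved medium, and the part of galactose in the differences of the 6 genes was not tested.

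Of the 45 listed pathway genes, 44 passed the level of 5 RPKM. Of these 44, 6 were past 2-fold higher in the starved library and 2 lower, against 10.8% and 4.05% of all features. Their median difference was 0.19, against 0.01 over all features. The osmotic stress genes held 4 of the 6 and 1 of the 2 among 8 measured. HAL1, a salt tolerance gene, read 18.2 and 85.1 RPKM (log2 difference 2.17), ENA1 12.8 and 56.1 (2.05) and GPP2 31.8 and 72.3 (1.16), while GPP1 read 1542 and 505 (-1.61). GCY1, a reductase gene that is also known to be induced by galactose, read 18.3 and 1098 (5.83). The remaining osmotic stress genes of the list, DCS2 (0.54), GRE2 (-0.62) and HXT5 (-0.76), did not pass 2-fold. Among 19 oxidative stress and drug genes, SOD2, the mitochondrial superoxide dismutase gene, read 257 and 811 (1.65) and OYE3, an oxidoreductase gene, 5.03 and 16.4 (1.53), while the peroxidase gene AHP1 read 1216 and 551 (-1.14). By the higher value of both media, the highest levels of the list were those of TSA1, a peroxiredoxin gene, at 2730 and 3823, SOD1 at 2355 and 2704 and HAC1, the bZIP factor gene of the unfolded protein response, at 1791 and 1552. GCN4, the bZIP factor gene of amino acid starvation, read 1202 and 1725, above HAC1 in starved medium. YHB1 read 1500.2 and 1465, and none of the 3 iron genes past the level differed 2-fold.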

How the data were processed

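Per the labels, each calling card file comes from the pooled colonies of 1 factor. The authors deposited it as headerless lines of chromosome, position and a whole-number count, taken here as reads. Lines were counted as listed, repeated positions included. The authors also deposited p-values per gene and factor, whose test and gene region the table does not state, and, per the file headers, RPKM with gene coordinates; the RNA depth is unknown. The aligner, filters and build are not given in the sources used here. All value columns were assigned to a library. Strand came from systematic names, which gave 6443 genes, 1176 of them, none of the 6, with merged coordinates; positions were written from 1. Counts were tested with scipy 1.17.1 by Fisher's exact test. The test was first run on simulated counts drawn independently, which do not cover dependence between insertions of 1 pool. Poisson intervals at 95% cover counting error alone, because insertions of 1 pool are not independent. The pseudocount of 1 on RPKM understates differences of low genes. The 6 genes, the pathway list and the tests were chosen with earlier results of these data known. Named genes were the 6, their neighbours and the 5 most like CIN5 and YAP6 in upstream pattern. Pathway genes called by the Yap6 library or past 2-fold and the 3 highest of the list were also named. So were the 5 lowest adjusted p of the Yap6 library. GAL1, YHB1, GCN4, DCS2, GRE2 and HXT5 were chosen after their values were seen, as were the pathway genes called by the same library by both methods. RefSeq R64 served for symbols only. Promoter and protein sequences were not used here, so a planned motif search was not run. Alternatives varied the windows, repeated positions, minimum reads, reference, thresholds and pseudocount.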

Additional observations from a re-analysis of the deposited data

How the results depend on the processing

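Of the calls of Fisher's exact test, those of Flo8, Mss11 and Mfg1 at CIN5 and of Mit1 at YAP6 held under all 8 upstream alternatives. Sok2 at CIN5 was lost with at least 2 reads per insertion (adjusted p = 0.53 by Fisher's exact test) and reversed to an odds ratio of 0.42 with positions richer elsewhere left out. That last filter compared reads unscaled for library size and could also drop shared insertions with ordinary reads. Upstream calls rose from 6 to 10, and at CIN5 from 4 to 8, with Flo8, Mss11 and Mfg1 out of the reference; this setting, added after the data were seen after stop codons, raised those calls and those at CIN5 from 3 to 7 each. Calls at YAP6 rose from 1 to 3 with each position counted once and to 4 without Mit1 in the reference. The call at YAP1 was lost, giving 0, with at least 2 reads. Counts of body calls and deposited calls moved by under 1.5 times, and no member passed 2-fold in RPKM under any alternative. Of the 10 most alike genes, 2 like YAP6 were replaced without the Flo8 partners and 1 like CIN5 in both alternatives. No paired analysis was possible because each group holds 1 library. Small libraries limit what a count of 0 excludes, and the causes of these shifts were not tested beyond the changed reference.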
